A study of Rattus norvegicus with 3 samples.

Results

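The genes described here encode the enzymes that make catecholamines and the proteins of the granules that store and release them. They are Th, Dbh, Pnmt, Npy, Chgb, Scg2, Cpe, Pam, Pcsk1 and Pcsk2, chosen by name, and every probe set annotated to 1 of these 10 symbols alone was read. That gave 16 of 8740 probe sets, for 9 of the 10 genes and of 4736 genes with a probe set of their own. Pcsk1 had no such probe set. Total RNA of 3 rat samples was hybridised to 1 expression array each, and their time labels are 0.0 h, 0.1 h and 1.0 h. Every sample carries the same source label, which joins pineal gland with adrenal medulla, so the tissue behind a single array is not known. Strain, age, genotype, treatment and number of animals are not given in the sources read. Differences between time labels therefore rest on single arrays, with no replicate spread, no p-value and a precision limited by the number of arrays.

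Chromaffin cells of the adrenal medulla turn tyrosine into adrenaline in steps. Tyrosine hydroxylase (Th) makes L-DOPA, the decarboxylase Ddc makes dopamine, dopamine beta-hydroxylase (Dbh) makes noradrenaline inside the granule, and Pnmt methylates it to adrenaline. The granules also hold granins such as Chgb and Scg2 and peptides such as Npy, whose precursors are cut by the convertases Pcsk1 and Pcsk2 at basic residues, trimmed by carboxypeptidase E (Cpe) and amidated by Pam. Pinealocytes are neuroendocrine cells too, and the gland is innervated by sympathetic fibres whose cell bodies, with most of their mRNA, lie in the superior cervical ganglion.

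Promoters of 8 of the 10 genes were found among RefSeq sequences of the rat assembly GRCr8, and Pnmt and Pcsk1 had no entry. The 250 bases before the annotated start were searched on both strands for TGACGTCA, the cyclic AMP response element, and for GCGGGGGCG, an Egr element. The first was found in Th and Scg2 and in 1.59% of 33469 rat promoters of this length, and the second 3 times, without overlap, in Pcsk2 and in 2.45% of the promoters. The stretches that hold a match are printed 5′ to 3′ with the matches in capitals, because they set a gene that read below the intensity floor (Th) beside one that read above it (Scg2) with the same element, and show the only member with the other.
Th, chr1:207508219-207508468, minus strand: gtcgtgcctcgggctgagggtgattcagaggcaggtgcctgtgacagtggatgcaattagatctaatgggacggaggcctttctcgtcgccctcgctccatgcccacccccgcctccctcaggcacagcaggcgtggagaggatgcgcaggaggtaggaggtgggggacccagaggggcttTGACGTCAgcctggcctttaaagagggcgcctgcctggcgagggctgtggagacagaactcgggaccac
Scg2, chr9:88256867-88257116, minus strand: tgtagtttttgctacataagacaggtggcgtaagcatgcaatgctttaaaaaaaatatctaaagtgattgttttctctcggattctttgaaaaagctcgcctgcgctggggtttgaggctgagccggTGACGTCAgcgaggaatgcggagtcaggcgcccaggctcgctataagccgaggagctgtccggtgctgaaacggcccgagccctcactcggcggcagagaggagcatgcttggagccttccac
Pcsk2, chr3:151333688-151333937, plus strand: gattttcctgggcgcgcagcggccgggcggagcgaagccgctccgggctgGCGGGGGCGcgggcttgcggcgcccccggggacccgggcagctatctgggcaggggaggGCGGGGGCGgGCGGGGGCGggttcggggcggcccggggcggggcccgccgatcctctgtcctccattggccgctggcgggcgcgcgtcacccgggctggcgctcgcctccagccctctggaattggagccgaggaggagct
The Th element lay 69 to 62 bases and the Scg2 element 123 to 116 bases before the annotated start. The Pcsk2 matches began 200, 141 and 131 bases before it. A match describes these letters and is not evidence of binding.

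Th and Dbh, enzymes that define catecholamine cells, read in the lower part of the intensity range. Levels are scaled linear intensities. They were read against a floor of 262.9, the 40th percentile of all readings, which is a convention and not a detection test. Th read 136.8 at 0.0 h, 202.1 at 0.1 h and 183.2 at 1.0 h. All 3 readings lay below the floor, at percentiles 29.1, 34.4 and 32.2 of the 0.0, 0.1 and 1.0 h arrays. Dbh read 90.8, 56.0 and 101.7 at 0.0, 0.1 and 1.0 h, also below the floor on all 3 arrays, at percentiles 23.0, 14.0 and 22.2 at 0.0, 0.1 and 1.0 h. With only below-floor readings, no difference between arrays was taken for either gene. Transcripts of Th and Dbh were therefore not distinguishable from background by this floor, which does not show that they were absent. In bulk samples, fewer cells of a type and less RNA per cell cannot be told apart.

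Pnmt, unlike Th and Dbh, was above the floor on all 3 arrays. Each of these genes had a single probe set. That of Pnmt carries a suffix of probe sets whose probes may match several transcripts, and those of Th and Dbh do not. Pnmt read 610.6, 656.8 and 514.7 at 0.0, 0.1 and 1.0 h, at percentiles 57.7, 57.4 and 52.9 at 0.0, 0.1 and 1.0 h. All 3 lay within 2-fold of each other, with log2 differences of 0.11 for 0.1 h over 0.0 h, -0.25 for 1.0 h over 0.0 h and -0.35 for 1.0 h over 0.1 h. The first changed sign with quantile normalization (-0.02) and with spike-in scaling (-0.17), and the last with spike-in scaling (0.12). With the floor at the 60th percentile Pnmt was no longer above it.

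Readings of probe sets for transcripts of other organs give a scale for such values. They were a list of 20 measured genes of testis germ cells, exocrine pancreas, skeletal muscle, kidney and liver, with 30 probe sets. Probes differ in affinity, so this is a range of readings and not a comparison of transcript amounts. Their median was 158.6, 157.8 and 148.1 at 0.0, 0.1 and 1.0 h, and their highest reading 688.9, 555.0 and 756.6 at 0.0, 0.1 and 1.0 h. At 0.0 h, 17 of the 30 read at or above Th and 20 at or above Dbh, at 0.1 h 14 and 22, and at 1.0 h 11 and 21. The count at or above Pnmt was 1 at 0.0 h, 0 at 0.1 h and 1 at 1.0 h. So Th and Dbh sat inside this range, while Pnmt sat at its upper end. Of these 30 probe sets, 4 were themselves above the floor on all 3 arrays, among them the pancreatic lipase gene Pnlip with 575.4, 497.9 and 358.5 at 0.0, 0.1 and 1.0 h. The 15 opposite-strand control probe sets reached 783.3, 1535 and 916.1 at 0.0, 0.1 and 1.0 h, above Pnmt on every array. Their medians, 202.7, 308.3 and 114.4 at 0.0, 0.1 and 1.0 h, lay below Pnmt. The 15 Bacillus subtilis control probe sets read at most 273.5, 308.6 and 349.1 at 0.0, 0.1 and 1.0 h, also below Pnmt. The 4 yeast control probe sets read at most 176.5, 139.3 and 230.4 at 0.0, 0.1 and 1.0 h.

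**Figure D1:**
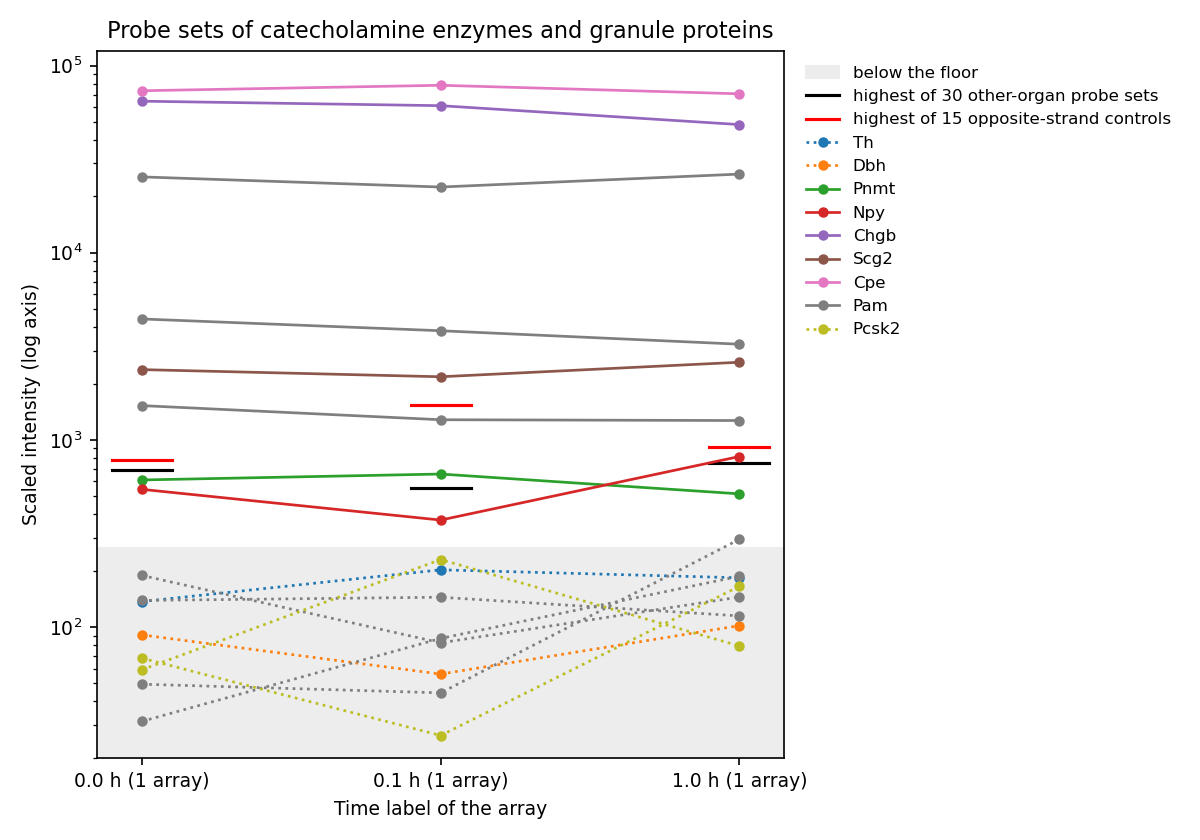
Scaled intensity (log axis) of every probe set of the 9 genes on the 3 arrays, 1 array per time label, joined only to guide the eye. Solid lines are the 8 probe sets that passed the floor everywhere and dotted lines the other 8; black and red bars mark the highest other-organ and opposite-strand control readings. Th, Dbh and both Pcsk2 probe sets stay in the grey band below 262.9, Pnmt and Npy lie near the bars, and Cpe and Chgb read 48390 or more.

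The rest of the route from tyrosine was uneven. Of 14 other genes for catecholamine synthesis, storage and breakdown, 11 had a probe set and 9 were above the floor on all 3 arrays when read from the brightest one. Of all 4736 genes, 2915 besides Npy were above it when read the same way. Ddc, which also makes serotonin in the pineal gland, read 19644, 20176 and 13225 at 0.0, 0.1 and 1.0 h. Gch1, which starts synthesis of the cofactor of both tyrosine and tryptophan hydroxylase, read 84599, 59974 and 81645 at 0.0, 0.1 and 1.0 h on its brightest probe set. Both are known to serve melatonin synthesis as well as catecholamine synthesis. The vesicular monoamine transporter gene Slc18a1, the form of chromaffin cells, read only 51.3, 73.3 and 61.1 at 0.0, 0.1 and 1.0 h. Its relative Slc18a2 had 2 probe sets, neither above the floor on any array, with 208.6, 85.0 and 42.1 at 0.0, 0.1 and 1.0 h on the one and 26.8, 118.0 and 197.9 on the other. The 2 ran in opposite directions. The noradrenaline transporter gene Slc6a2 was above the floor on all 3 arrays on 1 probe set, with 506.6, 539.1 and 372.1 at 0.0, 0.1 and 1.0 h, and on none with its other, at 37.9, 32.8 and 31.6 at 0.0, 0.1 and 1.0 h.

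Within that list few genes were 2-fold apart. Between 0.1 h and 0.0 h, 1 of 9 was at least 2-fold higher and none lower, beside 6.18% higher and 4.34% lower of all probe sets measured: Pts, an enzyme of cofactor synthesis, at 2.06-fold with 1693 at 0.1 h against 822.1 at 0.0 h. Between 1.0 h and 0.0 h, 1 of 9 was at least 2-fold lower and none higher, beside 2.53% lower and 2.93% higher of all: Maob, which breaks down amines, with 2301 at 1.0 h against 6646 at 0.0 h and a log2 difference of -1.53. Between 1.0 h and 0.1 h, 2 of 9 were at least 2-fold lower and none higher, beside 5.46% lower and 3.91% higher of all: Maob, with 2301 at 1.0 h against 5165 at 0.1 h, and Qdpr, which regenerates the cofactor, with 2007 at 1.0 h against 4308 at 0.1 h on its brightest probe set. The 4 Gch1 probe sets disagreed between 1.0 h and 0.0 h: the brightest had a log2 difference of -0.05 and another -1.33. The median log2 difference of the list was 0.09 for 0.1 h over 0.0 h, -0.05 for 1.0 h over 0.0 h and -0.44 for 1.0 h over 0.1 h, beside -0.0034, 0.01 and 0.0043 over all measured genes.

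Marker genes of the labelled tissues were read in the same way, beside those 2915 of 4736 genes above the floor throughout. Among 11 measured pinealocyte genes, Aanat read 253.0, 400.3 and 506.6 at 0.0, 0.1 and 1.0 h, below the floor at 0.0 h. The other 10 were above the floor on all 3 arrays, among them Tph1, Asmt and Pdc. Of 8 measured chromaffin transcription factor and receptor genes, 4 were (Ret, Chrna3, Chrnb4 and Chrna7), and the brightest were the nicotinic receptor subunit genes Chrna3, with 17213, 14006 and 16595 at 0.0, 0.1 and 1.0 h, and Chrnb4, with 14521, 12342 and 15398 at 0.0, 0.1 and 1.0 h on its brightest probe set. Of the 15 probe sets for these 8 genes, 5 were above the floor on all 3 arrays, and Ret and Chrna7 passed on their brightest only. Whether the receptor genes are particular to chromaffin cells was not tested. None of the 3 measured transcription factor genes was above the floor on any array. Phox2a read 240.9, 51.9 and 42.3 at 0.0, 0.1 and 1.0 h, Hand2 44.2, 53.5 and 91.8 at 0.0, 0.1 and 1.0 h, and Gata3 154.7, 125.0 and 59.3 at 0.0, 0.1 and 1.0 h; these 3 were singled out after their values were seen. Of 8 measured adrenal cortex genes, only Fdx1 and Scarb1, which many tissues express, were above the floor on all 3 arrays. Cyp21a1, a steroid hydroxylase of the adrenal cortex also singled out after its values were seen, read 395.7, 187.7 and 513.2 at 0.0, 0.1 and 1.0 h, above the floor on 2 of the 3.

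**Figure D2:**
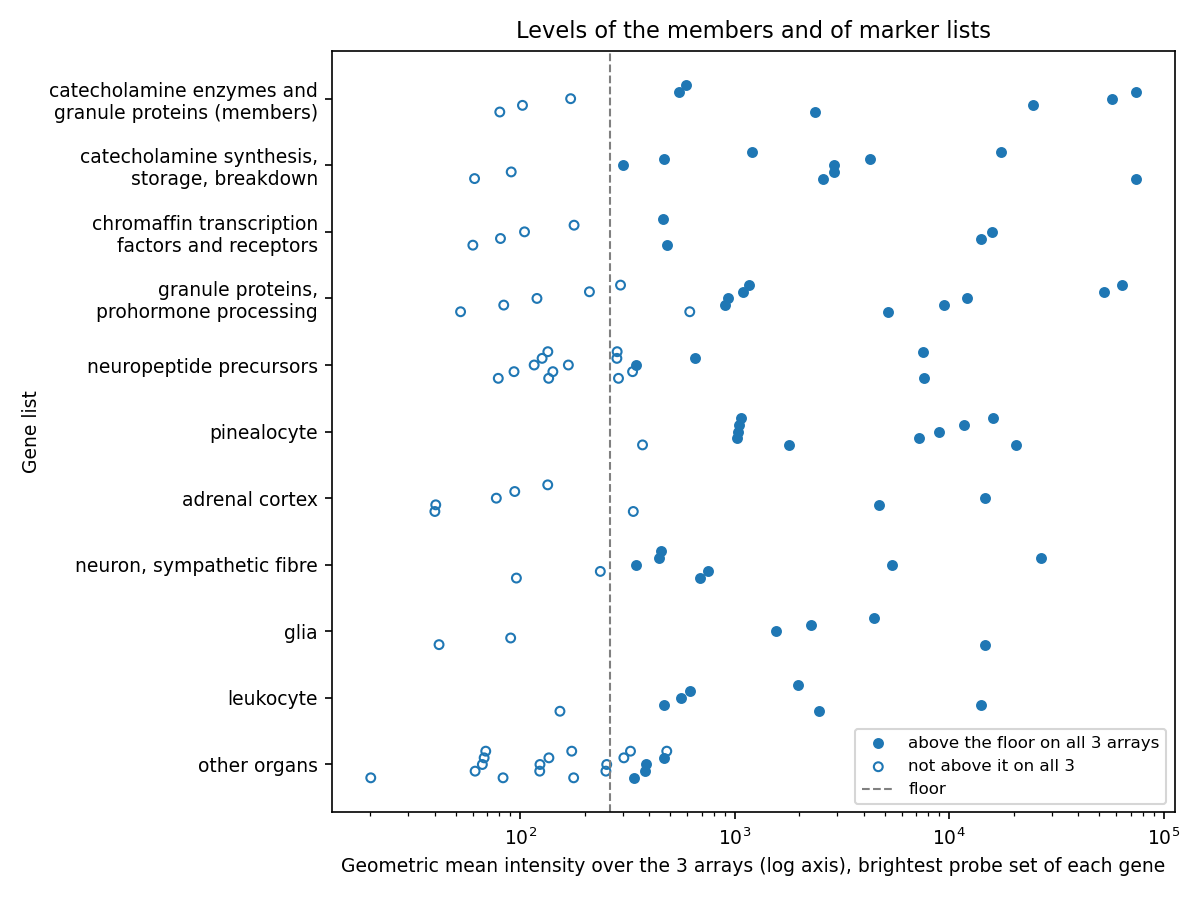
Geometric mean intensity over the 3 arrays (log axis) of the brightest probe set of each gene, by gene list; each point is 1 gene, filled where it was above the floor (dashed line, 262.9) on all 3 arrays. Points are spread vertically for legibility only. Of the pinealocyte genes 10 of 11 are filled, against 4 of 20 genes of other organs and 6 of 9 of the catecholamine enzyme and granule genes. Of all 4736 genes, 2915 besides Npy pass by the same rule.

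The granins read in the upper part of the intensity range. Chgb, chromogranin B, a granin of the granule core, read 64520, 61057 and 48390 at 0.0, 0.1 and 1.0 h, at percentiles 99.2, 99.0 and 98.8 of the 3 arrays in time order. Its log2 differences were -0.08 for 0.1 h over 0.0 h, -0.42 for 1.0 h over 0.0 h and -0.34 for 1.0 h over 0.1 h. The 1.0 h reading was the lowest of the 3, but by less than 2-fold, and with spike-in scaling the last difference was 0.13. Scg2, secretogranin II, another granin and the precursor of secretoneurin, read 2374, 2174 and 2599 at 0.0, 0.1 and 1.0 h. It was above the floor on all 3 arrays, with log2 differences of -0.13 for 0.1 h over 0.0 h, 0.13 for 1.0 h over 0.0 h and 0.26 for 1.0 h over 0.1 h. The 3 readings were close together. No probe set was annotated to Chga, chromogranin A, alone.

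The processing enzymes differed from each other. Cpe, which removes basic residues from the cut peptides, read 73372, 78464 and 70653 at 0.0, 0.1 and 1.0 h, at percentile 99.4 of every array, and its readings spanned 1.11-fold. Pcsk2, a convertase of neuroendocrine granules, was not above the floor on any array with either of its 2 probe sets. These read 59.2, 229.4 and 79.2 at 0.0, 0.1 and 1.0 h on the one and 68.1, 26.3 and 165.0 at 0.0, 0.1 and 1.0 h on the other. The 2 disagreed on which array was highest, 0.1 h on the first and 1.0 h on the second. Its secreted chaperone gene Scg5 (7B2) was above the floor throughout, with 9706, 11992 and 7205 at 0.0, 0.1 and 1.0 h on its brighter probe set.

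Pam had 7 probe sets, and they disagreed about its level. The brightest read 25419, 22437 and 26305 at 0.0, 0.1 and 1.0 h. The next read 4426, 3829 and 3245 at 0.0, 0.1 and 1.0 h. Another read 1524, 1281 and 1269 at 0.0, 0.1 and 1.0 h. These 3 were above the floor on all 3 arrays and each varied by at most 1.36-fold over the arrays. Both of the brightest carry the suffix of probe sets whose probes may also match related transcripts. The third carries the suffix described above for Pnmt, whose probes may match several transcripts. The other 4 Pam probe sets read between 31.3 and 294.0. Only 1 of the 4 was above the floor on any array, with 49.5 at 0.0 h, 44.5 at 0.1 h and 294.0 at 1.0 h. By their names, those without any reading above the floor included the companions of the probe set with 4426 at 0.0 h, for the same sequence. They read 138.7, 144.3 and 114.7 at 0.0, 0.1 and 1.0 h on the one and 31.3, 86.9 and 186.7 on the other. Whether the bright signal is that of Pam alone was not tested. All 3 measured probe sets were lower at 0.1 h than at 0.0 h, with log2 differences of -0.18, -0.21 and -0.25. For 1.0 h over 0.0 h the same probe sets had 0.05, -0.45 and -0.26, so their directions differed. The values at 0.1 h were lower than at 0.0 h in all 3 under every scaling run.

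Other granule and prohormone genes were a mixture as well. Of 18 listed, 15 had a probe set and 9 were above the floor on all 3 arrays, beside the 2915 of 4736 genes given above. Scg3, which tethers granins to the granule membrane, read 71008, 59534 and 61766 at 0.0, 0.1 and 1.0 h. The lysosomal and granule protease gene Ctsl read 57516, 47043 and 53598 at 0.0, 0.1 and 1.0 h on its brightest probe set. Genes of the list were compared where above the floor on both arrays of a pair. For 1.0 h over 0.0 h none of 9 was at least 2-fold apart, beside 5.47% of all measured probe sets. For 1.0 h over 0.1 h none of 10 was, beside 9.38%. For 0.1 h over 0.0 h, 1 of 10 was at least 2-fold lower and none higher, beside 4.34% lower and 6.18% higher of all. It was carboxypeptidase D, Cpd, with 807.2 at 0.1 h against 1699 at 0.0 h, a log2 difference of -1.07. Another 2, singled out after their values were seen, lay below the floor on part of the arrays, so their differences are bounds taken at the floor. Vgf, a granin-like precursor, read 1032, 1404 and 162.1 at 0.0, 0.1 and 1.0 h, at least 3.92-fold lower at 1.0 h than at 0.0 h and at least 5.34-fold lower than at 0.1 h. The convertase gene Pcsk5 read 93.4, 431.9 and 626.2 at 0.0, 0.1 and 1.0 h on its brightest probe set, at least 2.38-fold higher at 1.0 h than at 0.0 h. The proenkephalin gene Penk, a precursor known from both chromaffin cells and brain, read 6223, 10970 and 6410 at 0.0, 0.1 and 1.0 h and was under 2-fold apart between all arrays. Among 16 measured neuropeptide precursor genes other than Npy, 4 were above the floor on all 3 arrays, and Pdyn (7991, 7882 and 6837 at 0.0, 0.1 and 1.0 h on its brightest probe set) was the other bright one.

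Counted together, 8 of the 16 probe sets of the catecholamine and granule genes passed the floor on each array, beside 52.3% of all 8740. That share is near the background. The 8 belonged to 6 of the 9 genes, and of all 4736 genes 2915 besides Npy passed. Of the other 8 probe sets, 7 were not above the floor on any array. On the single arrays 8, 8 and 9 of the 16 were above it at 0.0 h, 0.1 h and 1.0 h, beside 58.8%, 60.5% and 60.9% of all.

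The comparisons between arrays asked which of these transcripts differed with the time label. Between 0.1 h and 0.0 h, none of the 8 measured probe sets was at least 2-fold apart, beside 10.5% of 4742 probe sets over the whole array. Their log2 differences ran from -0.55 to 0.11. Between 1.0 h and 0.0 h, none of 8 was 2-fold apart, beside 5.47% of 4775, with differences from -0.45 for a Pam probe set to 0.58 for Npy. Between 1.0 h and 0.1 h, 1 of 8 was at least 2-fold higher and none lower, beside 3.91% higher and 5.46% lower, 9.38% in all, of 4832. The comparisons with 0.0 h share the 0.0 h array, so its error enters both. The median log2 difference of the 6 measured genes was -0.10 for 0.1 h over 0.0 h, -0.0025 for 1.0 h over 0.0 h and 0.04 for 1.0 h over 0.1 h. The 9 spike-in controls themselves differed by 0.27, -0.20 and -0.47 on average in these comparisons, a shift that scaling to them takes off every gene. With that scaling the medians were -0.38, 0.19 and 0.51.

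**Figure D3:**
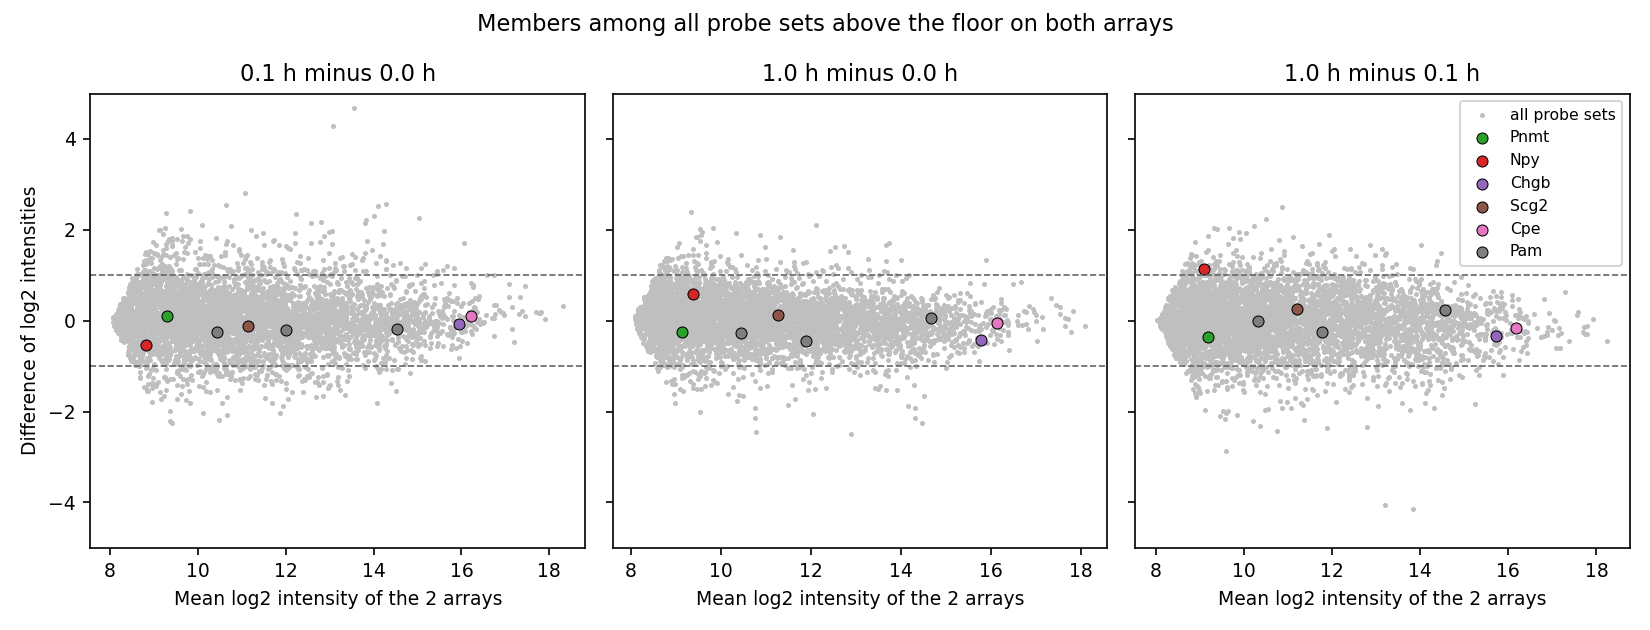
Difference of log2 intensities against mean log2 intensity for every probe set above the floor on both arrays (grey), with the 8 measured member probe sets in colour; dashed lines mark 2-fold. Npy, at the dim end, lies outside the lines only for 1.0 h minus 0.1 h, at 1.13, and Chgb and Cpe lie at the bright end within the lines in all 3 panels.

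The 1 probe set past 2-fold was that of Npy, neuropeptide Y, which sympathetic neurons and chromaffin cells store with noradrenaline. It read 544.0 at 0.0 h, 372.8 at 0.1 h and 814.7 at 1.0 h. The 1.0 h reading was 2.19-fold that at 0.1 h, a log2 difference of 1.13, and differed from 0.0 h by 0.58. The 0.1 h reading differed from 0.0 h by -0.55. The readings lay at percentiles 55.5, 46.3 and 61.6 of the 0.0, 0.1 and 1.0 h arrays: 3 of the 30 other-organ probe sets read at or above Npy at 0.0 h, 5 at 0.1 h and 0 at 1.0 h. The highest opposite-strand controls, at 783.3, 1535 and 916.1 at 0.0, 0.1 and 1.0 h, read above Npy on every array. Their medians, at 202.7, 308.3 and 114.4, lay below it. Of 1303 measured probe sets with a mean level between the 40th and 60th percentiles, 3.68% were at least 2-fold higher at 1.0 h than at 0.1 h. With the floor at the 60th percentile Npy was not measured in any comparison, and no member was then 2-fold apart.

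Several other readings moved between the same arrays, and their part in the Npy difference was not tested. For beta-actin, the probe sets at the 3' end read 10.4 times those at the 5' end at 0.0 h, 17.8 times at 0.1 h and 44.4 times at 1.0 h, a ratio that grows as RNA breaks down. For GAPDH it was 15.3 at 0.0 h, 18.6 at 0.1 h and 14.1 at 1.0 h. Both ratios were thus 10.4 or more on every array, a strong weighting to the 3' end that limits all levels given here. Its part in readings below the floor, such as those of Th, Dbh and Pcsk2, was not tested. Summed over the brightest probe sets of 9 neuron and sympathetic fibre genes, of which 7 were above the floor throughout, the level was 28571 at 1.0 h against 44077 at 0.1 h, and 7229 against 11551 without the brightest gene, Gap43. The median log2 difference of the 8 such genes measured on both arrays was nevertheless 0.22, with 5 above 0. Of these 8, 1 was at least 2-fold lower and none higher, beside 5.46% lower and 3.91% higher of all measured probe sets. The lower gene was Snap25, with 3544 at 1.0 h against 8065 at 0.1 h on its brightest probe set. The lower sum without Gap43 thus rests on Snap25, whose measured probe sets disagreed, with -1.19, -0.24 and 0.99. Summed likewise over 7 leukocyte genes, of which 6 were above the floor throughout, the level was 12968 at 1.0 h against 30712 at 0.1 h. Without the brightest of them, Spp1, which was at least 2-fold lower, the sum was 6388 at 1.0 h against 7529 at 0.1 h. Of 6 measured on both arrays 1 was at least 2-fold higher and 1, Spp1, lower, beside the same 3.91% and 5.46% of all. The higher gene was Cd74, the invariant chain of antigen presentation, with 807.6 at 1.0 h against 400.4 at 0.1 h on its brightest probe set. Of 11 pinealocyte genes measured on both arrays, 2 were at least 2-fold lower at 1.0 h and none higher, beside 5.46% and 3.91% of all. The 2 were Pdc, with 9173 at 1.0 h against 23079 at 0.1 h, and Pax4, with 747.4 at 1.0 h against 1612 at 0.1 h on its brightest probe set. Among the other-organ readings, the pancreatic elastase gene Cela2a was at least 2.88-fold higher at 1.0 h than at 0.1 h, where it was below the floor.

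Npy was the only member above the floor on all 3 arrays whose readings spanned at least 1.5-fold on its brightest probe set. By the largest deviation between centred log2 values, the genes most like it over the 3 arrays were Anpep, an aminopeptidase, with 2491, 1793 and 3817 at 0.0, 0.1 and 1.0 h, and Nptx1, a neuronal pentraxin, with 1510, 1030 and 2163 at 0.0, 0.1 and 1.0 h. Both deviated from Npy by at most 0.04. With 3 arrays such likeness is common: 63 of 2915 genes lay within 0.2 of Npy.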

How the data were processed

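The authors deposited linear intensity values, 1 for each probe set on each array. How they summarised probes and corrected background is not given in the sources used. Without the highest and lowest 2% of values, the deposited intensities of the 3 arrays averaged 2503.7, 2503.9 and 2503.7. Symbols came from the platform's probe annotation and were checked by gene ID against RefSeq genes of GRCr8, which changed 0. The 308 probe sets that list more than 1 symbol were left out.

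The deposited intensities were put on the log2 scale with no offset. After the array medians had been made equal, the 40th percentile of all readings was taken as floor. The arrays were then aligned on the medians of the probe sets above it on each array, which replaces the first scaling: the printed levels are the deposited ones shifted by 0.0078, 0.04 and -0.05 on the log2 scale. Differences were taken where both arrays were above the floor and counted at 2-fold or more. A gene with several probe sets was read from the brightest. The 59 control probe sets were left out of counts. Calculations used Python 3.11.15 with pandas 2.3.3. The code was also run on simulated arrays with far less noise than these, which does not test the calls made here. Named genes were all members, the 2 brightest of each list, list genes at least 2-fold apart, and a few fixed ones; not all are printed. The members and lists were chosen with earlier results of these data known. Alternatives were the deposited scaling, quantile and spike-in scaling, other floors, and other readings of genes with several probe sets.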

Additional observations from a re-analysis of the deposited data

How the results depend on the processing

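The count of member probe sets that passed the floor everywhere ranged from 6 to 10 over the alternatives run, and that of genes from 4 to 7. The floor at the 60th percentile left Chgb, Scg2, Cpe and Pam, and the floor at the 20th added Th and no other gene. With a floor at the 90th percentile of the other-organ readings, chosen after the data were seen, 5 genes were above it: Npy was not, and Pnmt was. For 1.0 h over 0.1 h, the count of members at least 2-fold higher was 1 under all 3 other scalings, 2 with the floor at the 20th percentile, where a below-floor Pam probe set with 1.09 joined Npy, and 0 with a 60th-percentile or other-organ floor. In those 2 settings Npy was no longer measured at 0.1 h, and with the 60th-percentile floor it was not measured in any comparison. No member was 2-fold apart in the comparisons with 0.0 h under any alternative run. Of 136 recomputed member differences, 13 changed sign, and the largest move was 0.47, with spike-in scaling. Medians near 0 also changed sign: for 1.0 h over 0.0 h the deposited scaling gave 0.05 against -0.0025. The number of arrays and the small distance of Pnmt and Npy from background readings limit what can be said of them.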
